A study of Mus musculus with 13 samples.

Results

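Papillary and reticular fibroblasts of the dermis are told apart by small sets of marker genes, and 9 such markers were followed here through 13 libraries of cultured neonatal mouse dermal fibroblasts. The papillary markers were Dpp4, Lrig1, Apcdd1, Ntn1, Pdpn and Col23a1, and the reticular and hypodermal markers were Dlk1, Ly6a and Mgp. They were taken by gene symbol from the 25655 genes of the deposited tables. All 9 were found, and 8 of them passed the filter of 1 TPM in at least 6 libraries, which 11942 genes passed. TPM scales reads to transcript length and to a fixed total of transcripts in each library, so levels of different genes can be set beside each other.

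The series asked whether fibroblasts of mice with the homozygous G234D allele of Fbn1 (Fbn1 G234D/G234D) differ in themselves from wild-type (WT) fibroblasts, with the extracellular matrix in view. Fbn1 encodes fibrillin-1, the glycoprotein of dermal microfibrils. RNA was sequenced from untreated primary cultures of the dermis of newborn mice, with a different animal number for each culture. Set 1 held 4 G234D cultures, M1 to M4, and 4 WT cultures, W1 to W4. Set 2 held 3 G234D cultures, M5 to M7, and 2 WT cultures, W5 and W6. The animal numbers in the labels divide set 1 into later animals with the higher numbers (M3, M4, W3 and W4) and earlier animals with the lower numbers (M1, M2, W1 and W2). The number of W1 lies far below the other numbers of the earlier animals, and no label calls either group a batch. Every library held transcripts of Col1a1, the main collagen of fibroblasts, at 9405 to 14553 TPM. A point mutation leaves the Fbn1 transcript in place, so its level does not check the genotype labels. TPM keep no read totals, so the depth behind each value is unknown.

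The dermis of a newborn mouse is layered. Papillary fibroblasts lie under the epidermis, receive Wnt signals from it and support hair follicles. Reticular fibroblasts lie deeper and lay down the bulk of the fibrillar collagen, and hypodermal cells below them give rise to adipocytes and their precursors. The markers followed here were established in intact mouse skin, and their levels can change once fibroblasts are cultured. In libraries of bulk cultures, fewer cells of a type and less RNA per cell cannot be told apart.

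The markers covered a wide range of levels, and neither class stood as a whole above the other. Ly6a, which encodes the surface protein Sca-1, had the highest median over the 13 libraries, 539 TPM, and lay above 99.0% of the 25655 genes. Pdpn, the mucin-like membrane protein podoplanin, followed at a median of 269 TPM. Mgp, matrix Gla protein, an inhibitor of calcification, had a median of 93.7 TPM and Lrig1, a membrane protein that restrains receptor tyrosine kinases, one of 70.3 TPM. These 4 genes are the ones the cultures expressed strongly, 2 from each class. Ntn1, the secreted guidance cue netrin-1, stood at 17.9 TPM. Dlk1, a Notch-like protein of preadipocytes, stood at 5.58 TPM, Col23a1, a membrane-spanning collagen, at 3.71 TPM and Apcdd1, a membrane inhibitor of Wnt signalling, at 3.47 TPM. Each marker lay above the next one in this order in 13 of 13 libraries, except that Mgp lay above Lrig1 in 8 of 13 and Col23a1 above Apcdd1 in 8 of 13. Those neighbours cannot be ordered beyond the spread over libraries.

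Dpp4, the surface peptidase CD26 and a marker of the papillary lineage in mouse skin, was close to undetected. Its level was 0.0945 to 0.353 TPM over the 13 libraries, below 1 TPM in all of them, so it entered no test. The gene (ENSMUSG00000035000) lies on the minus strand at chr2:62330073-62412231 of build mm10. Its values in set 1 were 0.142, 0.156, 0.230 and 0.166 TPM in M1 to M4, against 0.135, 0.194, 0.353 and 0.284 TPM in W1 to W4. In set 2 they were 0.250, 0.193 and 0.273 TPM in M5 to M7, against 0.0945 and 0.170 TPM in W5 and W6. The genotypes overlapped in set 1 and did not in set 2, with all values too low for a fold to be read. With 3 libraries against 2, the genotypes of set 2 did not overlap in 23.6% of the 11942 genes that passed the filter.

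**Figure D1:**
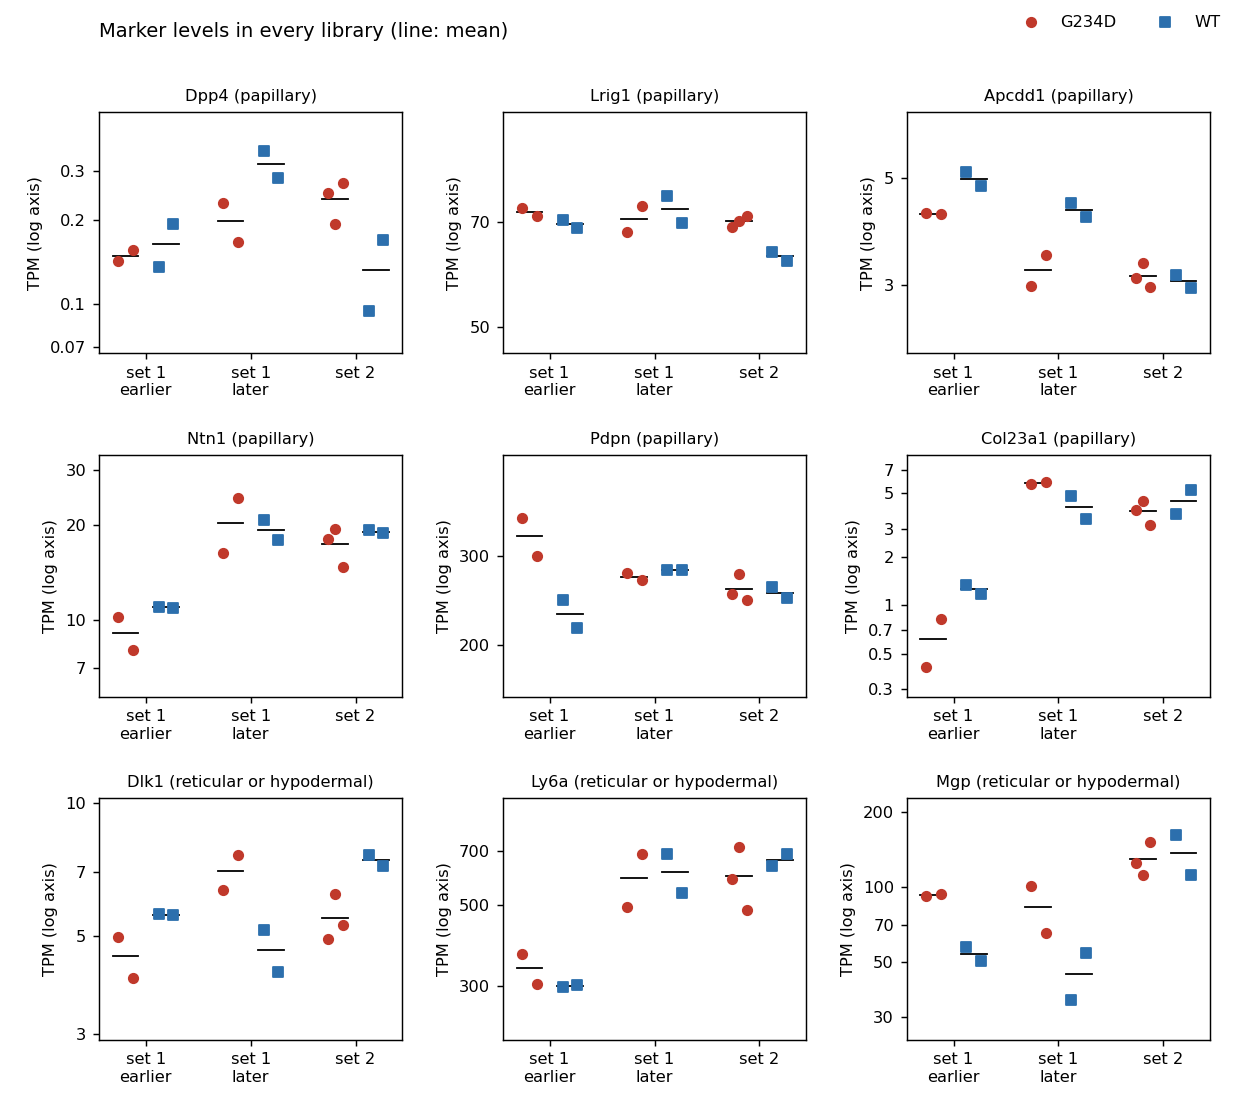
TPM of the 9 markers in every library, on log axes that differ between panels, by animal group of set 1 and for set 2, with G234D as circles, WT as squares and the mean of each group as a line. Ntn1, Col23a1 and Ly6a stand apart in the earlier animals, Mgp separates the genotypes of set 1, and Mgp is highest in set 2.

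Lrig1 was the steadiest marker. It lies on the minus strand at chr6:94604529-94700158 (mm10, ENSMUSG00000030029), with a gene of the opposite strand, Slc25a26, overlapping it; whether counting used the strand is not stated, so reads of the overlap may be shared. Its levels in set 1 were 73.2, 71.5, 67.8 and 73.8 TPM in M1 to M4, against 70.5, 68.7, 76.1 and 69.9 TPM in W1 to W4. In set 2 they were 69.0, 70.3 and 71.4 TPM in M5 to M7, against 63.7 and 61.8 TPM in W5 and W6. The 13 libraries thus lay within a 1.23-fold range, and only the WT libraries of set 2 lay below the rest.

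The comparison of genotypes over both sets gave no call among the markers. Differences were G234D minus WT on the log2(TPM + 1) scale, fitted with limma across all genes past the filter and called at an adjusted p under 0.05 (Benjamini-Hochberg); the added 1 understates differences of genes at low levels. None of the 8 markers tested was called, on a background of 0% of all genes called (0 of 11942). At an unadjusted p under 0.05 there were 769 genes, and Mgp was the 1 marker among them. Among the papillary markers the differences were 0.064 for Lrig1 (SE 0.038), −0.15 for Apcdd1 (SE 0.087), −0.11 for Ntn1 (SE 0.23), 0.15 for Pdpn (SE 0.079) and −0.082 for Col23a1 (SE 0.40). Among the reticular and hypodermal markers they were −0.070 for Dlk1 (SE 0.13), −0.034 for Ly6a (SE 0.23) and 0.49 for Mgp (SE 0.19). The median over the 5 papillary markers tested was −0.082, with 2 of 5 positive, and that over the 3 reticular and hypodermal markers −0.034, with 1 of 3 positive. All 11942 genes had a median of 0.011. The intervals were wide for Col23a1 (95% interval −0.95 to 0.78), Ntn1 (−0.62 to 0.39) and Ly6a (−0.55 to 0.48). They were narrow for Lrig1 (−0.018 to 0.15). The genotype fits held no term for the animal group of set 1, so the spread between its groups is part of these intervals. In set 1 the SE of Col23a1, Ntn1 and Ly6a was 0.60, 0.34 and 0.34 by genotype. It was 0.20, 0.13 and 0.13 for later minus earlier animals, fitted with the genotype as a covariate.

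Mgp had the largest difference of the 8 markers between genotypes over both sets, with genotypes that separated in set 1 and overlapped in set 2. It lies on the minus strand at chr6:136872435-136875823 (mm10, ENSMUSG00000030218). In set 1 it stood at 91.9, 93.7, 100.6 and 65.0 TPM in M1 to M4, against 57.0, 50.2, 35.0 and 54.4 TPM in W1 to W4. Every G234D library lay above every WT library, at means of 87.8 ± 15.7 TPM in G234D and 49.1 ± 9.86 TPM in WT (SD, n = 4 each). Such separation in either direction was found in 4.16% of the 11942 genes, and Mgp was the 1 of the 8 markers that showed it. On the log2 scale the difference was 0.83 (SE 0.18, 95% interval 0.42 to 1.24), a 1.78-fold value, with an adjusted p of 0.495 in limma. By p it ranked 37 of 11905 genes, in a comparison that called 0% of them (0 of 11905, with 721 at an unadjusted p under 0.05). The difference was 0.78 within the earlier animals and 0.88 within the later animals. M1 and M2 are libraries with raised markers of other cell types, described further on, whose part in the Mgp difference was not tested. Leaving out any 1 library of set 1 kept it between 0.68 and 0.97.

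In set 2 the Mgp levels of the genotypes overlapped. They were 124, 112 and 151 TPM in M5 to M7, against 162 and 111 TPM in W5 and W6. The difference on the log2 scale was −0.065 (SE 0.21, 95% interval −0.63 to 0.50, adjusted p = 0.970 in limma). The difference between the sets, set 2 minus set 1, was −0.90 (SE 0.31, 95% interval −1.57 to −0.22) with an adjusted p of 0.850 in limma. That interaction called 0% of genes (0 of 11942, with 691 at an unadjusted p under 0.05), so the genotype difference of Mgp was not shown to differ between the sets.

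**Figure D2:**
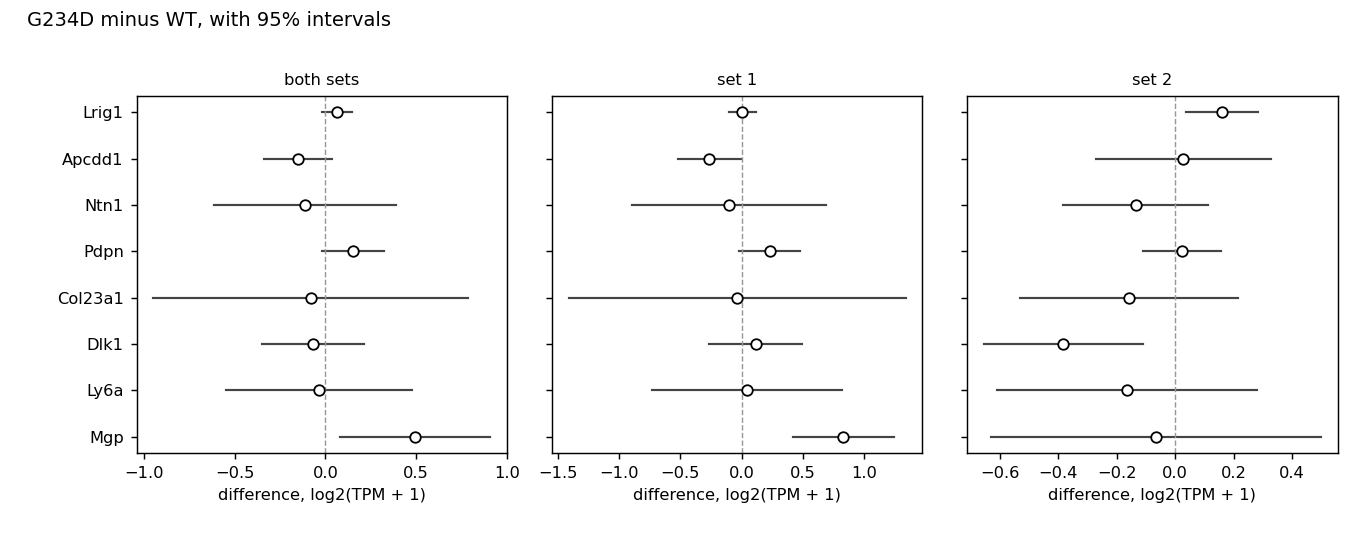
Log2 difference, G234D minus WT, of the 8 markers tested, for both sets together and for each set apart, with 95% intervals from limma and with horizontal axes that differ between panels; open circles are differences not called. Mgp lies at 0.49, 0.83 and −0.065, and the widest interval is that of Col23a1 in set 1 (−1.41 to 1.34).

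The other markers had small or uneven differences between genotypes. Apcdd1, on the plus strand at chr18:62922231-62961179 (mm10, ENSMUSG00000071847), stood in set 1 at 4.22, 4.20, 2.98 and 3.47 TPM in M1 to M4, against 5.14, 4.81, 4.43 and 4.15 TPM in W1 to W4. Within the earlier and within the later animals both G234D libraries lay below both WT libraries, and over set 1 the genotypes overlapped. With 2 libraries against 2, the genotypes did not overlap in 39.7% of genes in the later animals and in 57.7% in the earlier animals. On the log2 scale the difference was −0.26 (SE 0.11, 95% interval −0.52 to −0.0043, adjusted p = 0.819 in limma). In set 2 the levels were 3.10, 3.32 and 2.96 TPM in M5 to M7, against 3.14 and 2.96 TPM in W5 and W6, a difference of 0.028.

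Dlk1, an imprinted gene on the plus strand at chr12:109452823-109463336 (mm10, ENSMUSG00000040856), had opposite signs in neighbouring groups of cultures. In set 2 it stood at 4.94, 6.23 and 5.31 TPM in M5 to M7, against 7.66 and 7.22 TPM in W5 and W6. All 3 G234D libraries lay below both WT libraries, with a log2 difference of −0.38 (SE 0.12, 95% interval −0.66 to −0.11, adjusted p = 0.741 in limma). Lrig1 also separated the genotypes of set 2, at 0.16 (SE 0.055, 95% interval 0.036 to 0.28, adjusted p = 0.741 in limma). They were 2 of the 8 markers tested, where 23.6% of all genes separated the genotypes of set 2. Neither was called, in a comparison that called 0.00829% of genes (1 of 12060, with 781 at an unadjusted p under 0.05). The set by genotype interaction was −0.50 for Dlk1 (SE 0.24, adjusted p = 0.869 in limma) and 0.15 for Lrig1 (SE 0.069, adjusted p = 0.858 in limma).

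The comparison of later with earlier animals of set 1, fitted with the genotype as a covariate, separated the markers more than genotype did. Ntn1, Col23a1 and Ly6a were higher in the later animals, both classes being represented, and these 3 of the 8 markers tested were called. Over all genes 7.14% were called (850 of 11905), 332 higher and 518 lower in the later animals. That split became 419 higher and 403 lower when the libraries were rescaled by their median ratio, and the markers' directions were the same. In 15.4% of 11942 genes the later and earlier animals did not overlap, and the same 3 of 8 markers showed this. With 8 markers, these counts describe the list and no more.

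Col23a1 had the largest difference of the markers. The gene lies on the plus strand at chr11:51289920-51583918 (mm10, ENSMUSG00000063564). It stood at 5.74, 5.83, 4.79 and 3.45 TPM in M3, M4, W3 and W4 of the later animals, against 0.410, 0.824, 1.33 and 1.17 TPM in M1, M2, W1 and W2 of the earlier animals. The mean was 4.95 ± 1.10 TPM in later animals and 0.935 ± 0.410 TPM in earlier animals (SD, n = 4 each), a ratio of 5.29. On the log2(TPM + 1) scale the difference was 1.63 (SE 0.20, 95% interval 1.19 to 2.07, adjusted p = 0.00807 in limma). It was called whichever 1 of the 8 libraries was left out, with a highest adjusted p of 0.0453. The difference was 2.08 among G234D libraries and 1.17 among WT libraries.

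Upstream sequence is shown for Col23a1 and Pdpn, called here and in the interaction described further on, because among the called markers these have a matched RefSeq entry. The entries of GRCm38.p6 were matched by symbol for 5 of the 9 markers (Dpp4, Lrig1, Pdpn, Col23a1 and Dlk1), and the 250 bases before the start were read on the strand of the gene. Capitals mark matches on either strand to TCF/LEF letters (CTTTGAA or CTTTGAT or CTTTGTA or CTTTGTT), which are bound by the effectors of Wnt signalling, or to the GC box letters GGGCGG. The 2 motifs share no letters in these windows. The Col23a1 window is chr11:51289670-51289919, plus strand, and the Pdpn window is chr4:143299565-143299814, minus strand.
Col23a1: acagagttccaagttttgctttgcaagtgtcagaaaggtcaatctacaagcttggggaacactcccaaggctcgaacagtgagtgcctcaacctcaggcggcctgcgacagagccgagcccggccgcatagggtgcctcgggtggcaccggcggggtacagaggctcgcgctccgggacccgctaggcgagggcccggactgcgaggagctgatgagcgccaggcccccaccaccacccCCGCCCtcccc
Pdpn: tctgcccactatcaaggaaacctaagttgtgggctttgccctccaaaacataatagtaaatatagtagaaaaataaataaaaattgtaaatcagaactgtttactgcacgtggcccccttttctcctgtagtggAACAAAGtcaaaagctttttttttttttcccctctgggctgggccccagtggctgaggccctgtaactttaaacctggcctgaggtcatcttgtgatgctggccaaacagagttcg
The Col23a1 window held 1 GC box match, no TCF/LEF match and 66.0% G and C, more than 84.5% of all windows. The Pdpn window held 1 TCF/LEF match, no GC box match and 43.2% G and C, more than 19.0% of all windows. Of 32851 upstream windows of the same length, 14.8% held a TCF/LEF match and 32.7% a GC box match. A match describes the letters only.

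Ntn1 differed in the same direction. It lies on the minus strand at chr11:68209364-68400823 (mm10, ENSMUSG00000020902), with an overlapping gene model on its own strand, Gm12305. It stood at 16.3, 24.3, 20.8 and 17.9 TPM in M3, M4, W3 and W4, against 10.2, 8.02, 10.9 and 10.9 TPM in M1, M2, W1 and W2. The groups did not overlap, and the ratio of their means was 1.98. The difference on the log2 scale was 0.91 (SE 0.13, 95% interval 0.62 to 1.21, adjusted p = 0.0133 in limma). Without M2 it was 0.82 with an adjusted p of 0.0525, which ends the call.

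Ly6a was the reticular and hypodermal marker that was called. It lies on the minus strand at chr15:74994877-74998031 (mm10, ENSMUSG00000075602), among other Ly6 genes of similar sequence, and reads may have been divided between them. It stood at 493, 684, 685 and 539 TPM in M3, M4, W3 and W4, against 368, 304, 299 and 302 TPM in M1, M2, W1 and W2. The groups did not overlap, and the ratio of their means was 1.89. On the log2 scale the difference was 0.90 (SE 0.13, 95% interval 0.61 to 1.19, adjusted p = 0.0150 in limma). Without M2 it was 0.87 with an adjusted p of 0.0707, which ends the call. Ly6c1, its neighbour at chr15:75044018-75048830, stood at 80.7 to 121 TPM in later animals, against 40.5 to 49.4 TPM in earlier animals.

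The remaining 5 markers tested were not called between the animal groups. Apcdd1 had a log2 difference of −0.24 (SE 0.086, adjusted p = 0.116 in limma) and Mgp one of −0.24 (SE 0.17, adjusted p = 0.405 in limma). Dlk1 lay at 0.16, Lrig1 at 0.017 and Pdpn at 0.015. The median over the 5 papillary markers tested was 0.017 and that over the 3 reticular and hypodermal markers 0.16, beside −0.022 over all 11905 genes.

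Within set 1 the libraries M1 and M2 stood apart in markers of other cell types, and they make up the G234D side of the earlier animals. Schwann cell and melanocyte markers, 11 genes summed, stood at 130.1 and 133 TPM in M1 and M2, against 24.3 to 26.0 TPM in the earlier WT libraries, with 36.3 to 48.1 TPM in the later G234D libraries and 29.4 to 30.7 TPM in the later WT libraries. Their most abundant members were Ngfr and Sox10, while Tyr was below 1 TPM in every library. Skeletal muscle markers (12 genes) summed to 377 to 492 TPM in M1 and M2, against 147 to 180.2 TPM in the earlier WT libraries, led by Acta1 and Mylpf and with Ckm below 1 TPM throughout. Macrophage markers (11 genes) summed to 167 to 222 TPM, against 38.8 to 98.0 TPM, led by Lyz2 and C1qa and with Ptprc below 1 TPM throughout. Interferon-induced genes (14 genes) summed to 327 to 492 TPM, against 181 to 225 TPM. In set 2 the macrophage sums were 108 to 170 TPM and the interferon sums 362 to 588 TPM, which overlapped with those of M1 and M2. Endothelial markers (10 genes) summed to 4.59 to 13.8 TPM and keratinocyte markers (9 genes) to 2.66 to 8.92 TPM over all libraries, with 6 members of each list below 1 TPM in all of them. Pericyte and smooth muscle markers (8 genes) summed to 167 to 232 TPM in later animals, against 256 to 324 TPM in earlier animals. The part of these cells in the marker differences was not tested.

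The 3 called markers were also fitted within each genotype. Among WT libraries alone, 2 later against 2 earlier, the log2 difference was 0.77 for Ntn1 (adjusted p = 0.00904 in limma), 1.17 for Col23a1 (adjusted p = 0.0162) and 1.01 for Ly6a (adjusted p = 0.0298), in a fit that called 190 genes. Among G234D libraries alone it was 1.06 for Ntn1 (adjusted p = 0.0208), 2.08 for Col23a1 (adjusted p = 0.000932) and 0.80 for Ly6a (adjusted p = 0.0525), in a fit that called 2027 genes. The number of genes tested within each genotype is not given, so these marker calls are not set against a share of all genes. With all libraries but M1 and M2, a choice made after the data were examined, the estimates were by construction those of the WT libraries, 0.77, 1.17 and 1.01. Their adjusted p values were 0.209, 0.0508 and 0.205, so none of the 3 was called, and 13 genes were called in all. Calls over all genes were 36 without M2, 120 without M1, 286 without M4, 288 without W1, 340 without M3 and 480 without W3.

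**Figure D3:**
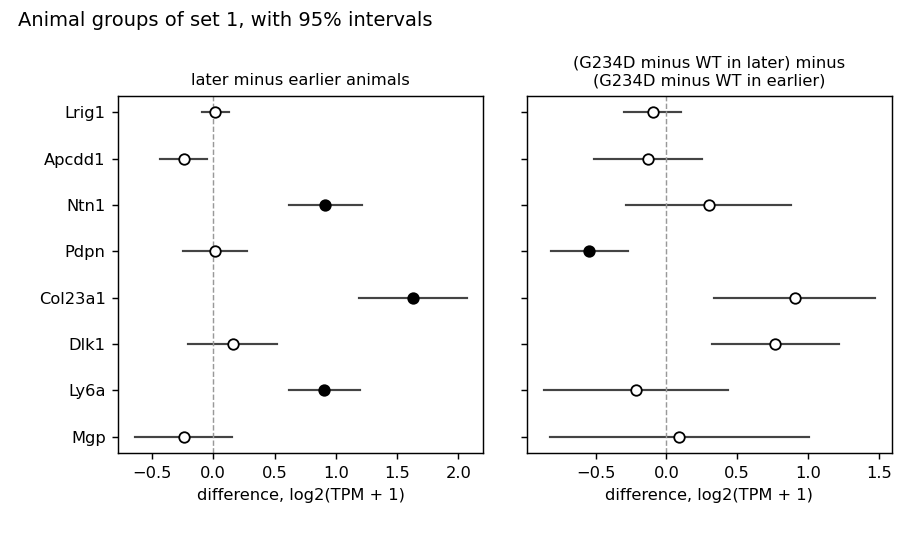
Log2 differences of the 8 markers tested in set 1, with 95% intervals from limma. The left panel gives later minus earlier animals and the right panel the G234D minus WT difference in later animals minus that in earlier animals; filled circles are called at an adjusted p under 0.05, namely Ntn1, Col23a1 and Ly6a on the left and Pdpn on the right.

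The genotype difference of Pdpn was called as different between the animal groups, close to the threshold. Pdpn lies on the minus strand at chr4:143267431-143299564 (mm10, ENSMUSG00000028583). In the later animals it stood at 278 and 269 TPM in M3 and M4, against 282 and 281 TPM in W3 and W4. In the earlier animals it stood at 356 and 299.7 TPM in M1 and M2, against 246 and 216 TPM in W1 and W2. G234D thus lay just below WT in the later animals (log2 difference −0.042) and above WT in the earlier animals (0.50, a ratio of means of 1.42). The Pdpn levels of the genotypes did not overlap in either animal group, as in 39.7% of genes in the later and 57.7% in the earlier animals. In set 2 the values were 252, 277 and 246 TPM in M5 to M7, against 260.1 and 248 TPM in W5 and W6, a difference of 0.023.

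The animal group by genotype interaction of Pdpn was −0.54 (SE 0.12, 95% interval −0.81 to −0.27, adjusted p = 0.0488 in limma). It was the 1 of 8 markers called, in a comparison that called 2.96% of genes (363 of 12252, 115 higher and 248 lower). The value lies close to the threshold: leaving out W1, W2, W3, W4, M1, M3 or M4 kept it between −0.63 and −0.42 with adjusted p values from 0.0639 to 0.155, which ends the call, and without M2 it was −0.67 with an adjusted p of 0.0217. Its earlier G234D side is M1 and M2, the libraries with the raised markers of other cell types given above, whose part in it was not tested.

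Col23a1 and Dlk1 had interactions of the opposite sign, neither called. Col23a1 lay at 0.91 (SE 0.25, adjusted p = 0.0874 in limma), with G234D minus WT at 0.42 in the later animals and −0.49 in the earlier animals. Dlk1 stood at 6.38 and 7.65 TPM in M3 and M4, against 5.16 and 4.16 TPM in W3 and W4 of the later animals. It stood at 4.99 and 4.02 TPM in M1 and M2, against 5.61 and 5.58 TPM in W1 and W2 of the earlier animals. Within each animal group the Dlk1 levels of the genotypes did not overlap, as in 39.7% of genes in the later and 57.7% in the earlier animals, and the sign differed: the interaction was 0.77 (SE 0.20, 95% interval 0.32 to 1.22, adjusted p = 0.0728 in limma). Without M3 it was 0.88 with an adjusted p of 0.0453. The remaining interactions were 0.30 for Ntn1, −0.22 for Ly6a, −0.13 for Apcdd1, −0.098 for Lrig1 and 0.092 for Mgp.

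Across the sets the tables were made apart, so the levels are a description. Mgp was the 1 marker whose sets did not overlap, at 111 to 162 TPM in set 2, against 35.0 to 100.6 TPM in set 1, with a ratio of means of 1.93. Over all genes the sets did not overlap in 17.2%. Against the later animals alone, Mgp was again the 1 of 8 markers that did not overlap with set 2, where 25.1% of genes did not. Against the earlier animals 5 of 8 markers did not overlap with set 2, where 36.3% of genes did not. Of those 5, Ntn1 (14.7 to 19.4 TPM in set 2, against 8.02 to 10.9 TPM in the earlier animals), Col23a1 (3.18 to 5.19 TPM, against 0.410 to 1.33 TPM), Ly6a (484 to 717 TPM, against 299 to 368 TPM) and Mgp (111 to 162 TPM, against 50.2 to 93.7 TPM) were higher in set 2. The fifth, Apcdd1, was lower in set 2 (2.96 to 3.32 TPM, against 4.20 to 5.14 TPM). In the 3 markers called between animal groups, set 2 thus overlapped with the later animals. Macrophage markers summed to 108 to 170 TPM and interferon-induced genes to 362 to 588 TPM in set 2, against 35.4 to 222 TPM and 165 to 492 TPM in set 1, and their part in the marker levels was not tested.

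The 2 classes were also summarised by the mean log2(TPM + 1) of their members in each library, without a test. The papillary mean was 3.90 to 4.04 in the later animals, against 3.51 to 3.62 in the earlier animals, and 3.75 to 3.91 in set 2. Among its members, later minus earlier was 1.63 for Col23a1 and 0.91 for Ntn1. The other members lay at 0.12 (Dpp4), 0.017 (Lrig1), 0.015 (Pdpn) and −0.24 (Apcdd1). The reticular and hypodermal mean was 5.74 to 6.19 in the later animals, against 5.55 to 5.88 in the earlier animals, and 6.25 to 6.59 in set 2. The papillary mean thus set the earlier animals apart, mainly through Col23a1 and Ntn1, and the reticular and hypodermal mean set 2, through Mgp. Without Mgp the reticular and hypodermal mean was 5.79 to 6.23 in set 2 and 5.72 to 6.27 in the later animals, which overlapped. The papillary minus reticular difference in set 1 was −2.34 to −2.17 in G234D and −1.99 to −1.69 in WT, which did not overlap. In set 2 it was −2.53 to −2.41 in G234D and −2.79 to −2.58 in WT, on the other side. The first of these depended on Mgp: without it the set 1 values were −2.25 to −1.78 in G234D and −1.98 to −1.82 in WT, which overlapped. In set 2 without Mgp they were −2.26 to −2.04 in G234D and −2.41 to −2.38 in WT.

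**Figure D4:**
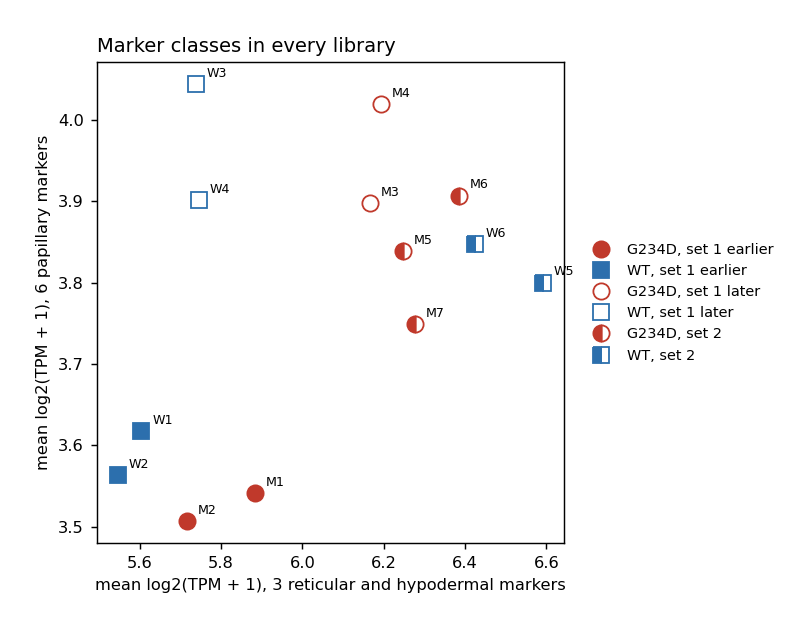
Mean log2(TPM + 1) of the 6 papillary markers (vertical axis) against that of the 3 reticular and hypodermal markers (horizontal axis), 1 point per library, with G234D as circles and WT as squares. The earlier animals of set 1 lie lowest on the papillary axis (3.51 to 3.62) and set 2 lies highest on the reticular and hypodermal axis (6.25 to 6.59). The former rests mainly on Col23a1 and Ntn1, and the latter on Mgp.

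Further genes of the same kinds, taken from lists beside the 9 markers, likewise gave no call between genotypes over both sets, where 0% of all genes were called. Of 14 other papillary genes 8 were tested over both sets and none was called between genotypes; the 3 of smallest p were Nkd2, a brake on Wnt signalling, at 0.33 (SE 0.14), Prdm1, a transcriptional repressor, at −0.46 (SE 0.22) and Crabp1, a retinoic acid binding protein, at −0.31 (SE 0.17). Of 19 other reticular and hypodermal genes 16 were tested and none was called, with Col14a1, a fibril-associated collagen, at 0.56 (SE 0.15, adjusted p = 0.696 in limma), the fatty acid receptor Cd36 at 0.67 (SE 0.35) and the peroxidase Gpx3 at 0.28 (SE 0.18). Of 12 Wnt target genes 8 were tested, 2 positive and 6 negative, and none was called. Nkd2, also on this list, lay at 0.33, Lgr5, a receptor for R-spondins, at −0.82 (SE 0.66) and the transcription factor Lef1 at −0.19 (SE 0.18). The medians of the 3 lists were −0.087, −0.035 and −0.12, beside 0.011 over all genes.

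Between the animal groups, where 7.14% of all genes were called, both kinds of list held called genes. Of 9 other papillary genes tested in set 1, Prdm1 (4.01 to 6.81 TPM in later animals, against 1.40 to 4.21 TPM in earlier animals; log2 difference 0.72, adjusted p = 0.0326 in limma) and Lef1 (3.21 to 4.69 TPM, against 1.55 to 2.68 TPM; 0.63, adjusted p = 0.0337) were higher in the later animals and none was lower. Of 16 other reticular and hypodermal genes, 3 were higher and 3 lower. Higher were the matrix protein Dpt (81.8 to 113 TPM in later animals, against 38.5 to 65.3 TPM in earlier animals; 0.98), the glypican Gpc3 (0.88) and the adipogenic receptor Pparg (0.72). Lower were Cd36 (0.580 to 1.11 TPM in later animals, against 1.26 to 6.70 TPM in earlier animals; −1.34) and the contractile genes Cnn1 (−0.71) and Acta2 (4422 to 5373 TPM, against 6180 to 6830 TPM; −0.40). In the earlier animals Cd36 was higher in M1 and M2, at 5.22 and 6.70 TPM, against 2.50 and 1.26 TPM in W1 and W2. Of 7 pericyte and smooth muscle markers tested, Rgs5, Mcam and Notch3 were called lower in the later animals as well, beside the sums given above, and the part of those cells in the lower contractile genes was not tested. Of 8 Wnt target genes, Lgr5 (62.6 to 128 TPM, against 6.85 to 31.3 TPM; 2.53, SE 0.45, adjusted p = 0.0326 in limma) and Lef1 were higher. The Wnt target genes held 3 positive and 5 negative differences, with none called lower. The medians of the papillary, reticular and hypodermal, and Wnt lists were 0.0046, −0.22 and −0.091, beside −0.022 over all genes.

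**Figure D5:**
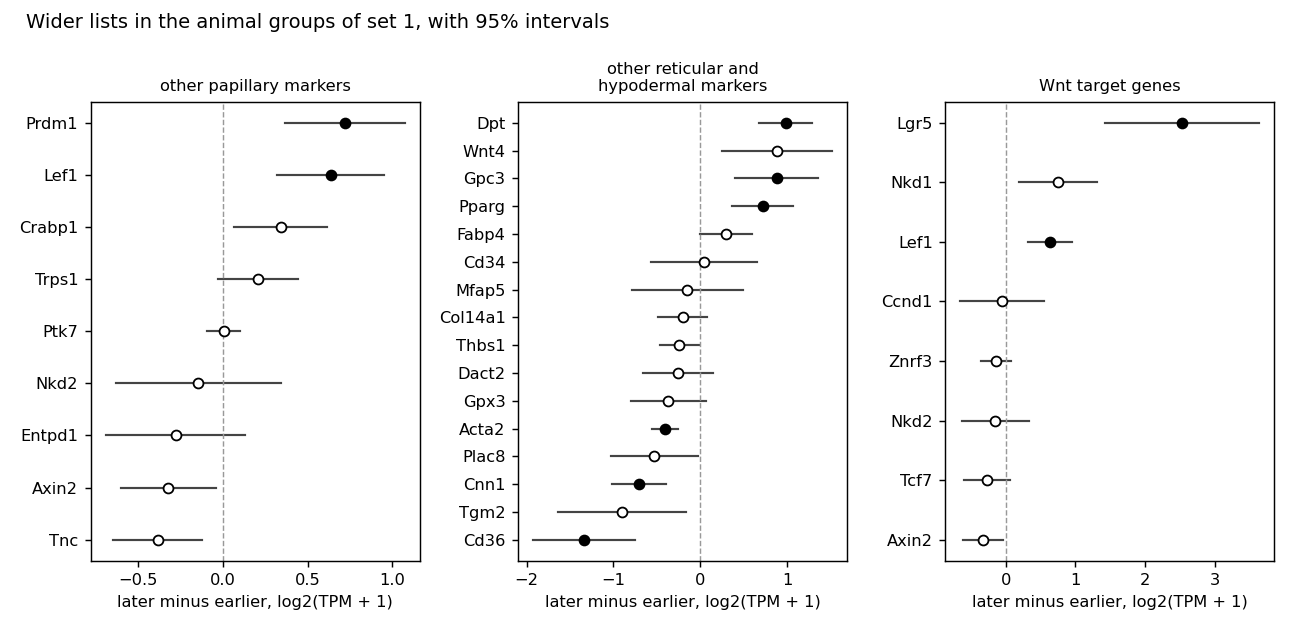
Log2 difference, later minus earlier animals of set 1, of the members tested of 3 further lists (other papillary markers, other reticular and hypodermal markers, Wnt target genes), with 95% intervals from limma and filled circles for called genes. Called genes lie on the higher side in the papillary and Wnt lists and on both sides in the reticular and hypodermal list, from Cd36 at −1.34 to Dpt at 0.98. In the Wnt list 5 of 8 genes lie on the lower side, none of them called.

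In the animal group by genotype interaction, which called 2.96% of all genes and Pdpn among the markers, Nkd2 was called among the other papillary genes at −1.09 (adjusted p = 0.00221 in limma). It stood at 19.7 to 21.3 TPM in G234D and 21.7 to 23.3 TPM in WT of the later animals, and at 32.4 to 34.9 TPM in G234D and 16.5 to 17.1 TPM in WT of the earlier animals. Wnt4, a secreted Wnt protein, was called at 1.28 and Thbs1, thrombospondin-1, at −0.47 among the other reticular and hypodermal genes. Among Wnt targets Nkd1 was called at 1.14, and Nkd2 and the cyclin Ccnd1 (−1.18) were called on the lower side. The medians were −0.076 over 9 papillary genes, −0.33 over 16 reticular and hypodermal genes and −0.036 over 8 Wnt targets, beside 0.016 over all genes. In the same comparison 5 of 8 Schwann cell and melanocyte markers tested were called lower, and their part in these differences was not tested.

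The genes most like each marker were sought by Pearson's r of log2(TPM + 1) over the 13 libraries, each gene centred on its mean within each animal group of set 1 and within set 2. These are descriptions: the libraries share genotypes and a fixed total, and the top of 11942 genes is high by selection. Pdpn was most like Prrg4 (r = 0.964), Ppm1f and Thbd, the thrombomodulin gene. Prrg4 stood at 10.6 and 8.31 TPM in M1 and M2, against 2.04 to 3.44 TPM in all other libraries. Pdpn was also highest in M1 and M2, and the centring leaves their contrast with W1 and W2 in place. Col23a1 was most like Zfp68 (0.955), Ptger2, a prostaglandin E2 receptor, and the transcription factor gene Twist1. Ntn1 was most like Zfp1 (0.935), Lamtor1 and Cmklr1, the chemerin receptor gene. Apcdd1 was most like the integrin gene Itgb5 (0.933), Acat2 and Septin9, and Lrig1 was most like Tex10 (0.889), D130040H23Rik and Tmed10. Ly6a was most like its neighbour Ly6c1 (0.938), Rtn4r and the protease gene Adamts1. Mgp was most like Ecrg4 (0.932), Desi2 and the growth factor gene Igf2, and Dlk1 was most like Ss18 (0.911), Polr2i and Lancl1.

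Among the markers themselves the tightest relation, so centred, was a negative one across the classes. Apcdd1 and Mgp had r = −0.870 and Spearman's rho = −0.819 over 13 libraries, and r = −0.711 over 11 libraries without M3 and W3. Within each animal group of set 1 the G234D libraries had the lower Apcdd1 and the higher Mgp values. Ntn1 and Ly6a, of different classes, had r = 0.725 and rho = 0.429, and Col23a1 and Dlk1, also of different classes, r = 0.630 and rho = 0.637.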

How the data were processed

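Each library is 1 culture, with 13 in all, and samples were grouped by the genotype labels. The authors deposited TPM per gene for each library, per the file headers; every library sums to 1000000 TPM over the same 25655 genes, so TPM carry no depth and no counting interval could be given. Libraries were made with a stranded kit from column-purified total RNA, per the labels' protocols, and the build was mm10, per the submitters' processing notes. Not given in the sources used here were the aligner, the counter and the annotation. Coordinates came from GENCODE M21, matched by identifier for 25600 genes.

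TPM were tested as log2(TPM + 1) with limma 3.58.1 in R 4.3.3, with a trend and robust empirical Bayes. Genes at 1 TPM or more in 6 libraries (both sets, set interaction), 4 (set 1) or 2 (set 2, animal group interaction) were kept, and p values were adjusted over all of them by the Benjamini-Hochberg method, with calls at 0.05. The fits other than the interaction fits were also run on simulated data, whose outcome is not given here, so no support is drawn from it. The p values measure the spread between cultures of different animals.

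The members, lists and the animal group division were chosen with earlier results of these data known. Named genes were the 9 markers, the 3 genes most like each, and of each further list the called members (at most 4 by p) or else up to 3 of smallest p over both sets. Of markers of other cell types the most abundant were named. Deviations from group means correlated between same-numbered G234D and WT cultures at 0.314, 0.236, 0.244 and 0.214 in set 1, all above the limit of 0.1 set for pairing, and at −0.155 and 0.0138 in set 2. Differently numbered cultures of the same animal group of set 1 correlated at 0.189, 0.397, 0.0885 and 0.44, and those of different animal groups negatively, so the correlation goes with the animal group and does not show pairing by number. Alternatives were other filters, pseudocounts, scalings and covariates, the replicate block, and libraries left out.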

Additional observations from a re-analysis of the deposited data

Results flagged for a closer look

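The genotype difference of Pdpn, podoplanin, was called as different between the animal groups of set 1, close to the threshold, by a test of the difference itself. It was −0.042 in the later animals and 0.50 in the earlier animals, and the interaction was −0.54 on the log2 scale (adjusted p = 0.0488 in limma). M1 and M2 were both above W1 and W2, and M3 and M4 were both below W3 and W4. The call held without M2 and was lost on leaving out any other library of set 1. Each marker was also examined in the 4 G234D and in the 4 WT libraries of set 1 for a library far from the others, 18 groups in all, and none had one. Each group held earlier and later libraries in equal number, so libraries shifted together, such as M1 and M2, would not be found this way.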

How the results depend on the processing

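Of the marker values recomputed under other settings, 728 kept their direction and side of the threshold, 68 changed sign, 16 lost a call and 2 gained one. The values that changed sign belonged to differences that were not called. Over both sets, without M1 and M2, Ntn1 was 0.16, Col23a1 0.45, Dlk1 0.023 and Ly6a 0.15. In set 1 without them (chosen after the data were examined) Lrig1 was −0.0093, Ntn1 0.43 and Col23a1 1.0, with 23 genes called. The set interaction then called 16 genes. Later minus earlier animals without them called 13 genes, with Ntn1 at 0.77, Col23a1 at 1.17 and Ly6a at 1.01 (none called) and Dlk1 at −0.23. WT libraries alone called 190 genes, with Dlk1 at −0.23. G234D libraries alone called 2027, with Lrig1 at −0.032, Pdpn at −0.26, Dlk1 at 0.54 (called) and Ly6a at 0.80 (not called).

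With the replicate block, set 1 called 1 gene (also with the animal group as covariate) and set 2 called 21, Ly6a over both sets was 0.022 and Ntn1 in the set interaction 0.078; no marker's call changed with the block. Set 2 called 0 genes without a filter and 0 at 10 TPM; Pdpn there was −0.011 after median-ratio rescaling and Apcdd1 −0.015 after quantile normalization. Col23a1 in the set interaction was 0.049 with a pseudocount of 0.1. Without a filter, later minus earlier called 269 genes and the animal group interaction 139. Pdpn in that interaction lost its call without a filter (−0.54, adjusted p = 0.0988), with a pseudocount of 0.1 (−0.55, adjusted p = 0.0538) and without the robust step (−0.54, adjusted p = 0.0502). The causes were not tested.

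Leaving out 1 library at a time, calls ranged from 0 to 2 in set 1, 0 to 14 in set 2, 0 to 1 in the set interaction, 36 to 883 for later minus earlier and 41 to 688 for the animal group interaction. Over both sets Ntn1 ranged from −0.27 to 0.019, Col23a1 from −0.29 to 0.15 and Ly6a from −0.17 to 0.092. In set 1 Lrig1 ranged from −0.011 to 0.038, Ntn1 from −0.37 to 0.13, Col23a1 from −0.39 to 0.37, Dlk1 from −0.011 to 0.25 and Ly6a from −0.17 to 0.27. In set 2 Apcdd1 ranged from −0.0061 to 0.060, Pdpn from −0.027 to 0.058, Col23a1 from −0.36 to 0.039 and Mgp from −0.33 to 0.20. In the set interaction Ntn1 ranged from −0.26 to 0.23, Col23a1 from −0.53 to 0.23 and Ly6a from −0.44 to 0.00048. For later minus earlier Lrig1 ranged from −0.017 to 0.051 and Pdpn from −0.076 to 0.12. In the animal group interaction Ly6a ranged from −0.45 to 0.017 and Mgp from −0.22 to 0.40. The read depth is unknown, so the limit it sets on Dpp4, Col23a1 and other genes at low TPM cannot be given.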
